A study of Mus musculus with 37 samples.

Results

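The liver keeps blood glucose steady by making it, storing it as glycogen and breaking it down, and 8 genes that encode or control these steps were followed across the livers of mice given HFPO-DA (hexafluoropropylene oxide dimer acid, a short-chain perfluoroalkyl ether acid). They were Pck1, G6pc, Fbp1, Pcx, Pklr, Slc2a2, Gys2 and Ppargc1a, chosen by name, and every probe bearing one of these symbols was used. They are 8 of 21450 genes in the table, with 9 of its 30146 probes, since Slc2a2 had a pair of probes. All 9 probes passed the filter on low counts and are among the 18570 probes of 13004 genes that were tested.

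Liver RNA came from wild-type CD1 mice, the outbred stock Crl:CD1(ICR), of the parental generation of a reproduction and developmental toxicity study. The daily gavage held HFPO-DA in deionized water at 5, 0.5 or 0.1 mg/kg, and the controls (0 mg/kg) received the water alone. Males were about 6 weeks old at the first dose and received 84 to 85 doses, from 70 days before mating to the end of a 14-day mating period. Females were about 11 weeks old and received 53 to 65 doses, from 14 days before mating until day 20 or 21 of lactation. There were 5 males in each group except for 4 at 5 mg/kg, and 5 females in each of the groups at 0 and 0.1 mg/kg and 4 in each of those at 0.5 and 5 mg/kg. Each of the 37 mice was 1 library. Sex, lactation, age and length of dosing cannot be told apart between the male and female groups. Whether mice had been fed before necropsy is not given in the sources used here. Each library was made from scraped sections of fixed liver by TempO-Seq, in which detector probes are ligated on their target RNA and the ligated products are amplified and counted. Because the sections hold the whole tissue, fewer hepatocytes and less RNA per hepatocyte cannot be told apart.

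Total counts were 2101495 to 10548222 in males and 7952605 to 13878254 in females. 4 libraries, all from treated males, were under 5000000 counts, and 2 of them were replicates 1 and 3 of the 4 males at 5 mg/kg. As a check of the tissue, the 8 hepatocyte markers summed to 12395 to 20067 CPM (counts per 1000000 of the normalised library) in control males and to 12503 to 14722 CPM in males at 5 mg/kg. In females the same sum was 16711 to 23542 CPM in controls and 15472 to 18528 CPM at 5 mg/kg, and all 8 markers had counts in every group. At 5 mg/kg 3 of these 8 markers fell in males and 2 in females, and 2 of 8 sinusoidal endothelial markers, Kdr and Oit3, fell in males and 0 in females. Of all genes tested, 10.6% had a probe called downward in males and 2.63% in females. None of the 8 Kupffer cell or the 8 stellate cell markers was called in either sex. The median stellate sum was 207 CPM in control males and 371 CPM at 5 mg/kg (ranges 183 to 488 and 323 to 475 CPM). In females it was 253 and 461 CPM (ranges 184 to 920 and 259 to 816 CPM). For Kupffer cells the medians were 121 and 128 CPM in males and 202 and 229 CPM in females. Differences in these sums were not tested. What part these shifts have in the results was not tested.

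Gluconeogenesis rebuilds glucose from lactate, amino acids and glycerol. Pyruvate carboxylase (Pcx) makes oxaloacetate, phosphoenolpyruvate carboxykinase (Pck1) turns it into phosphoenolpyruvate, fructose bisphosphatase (Fbp1) removes a phosphate further up the pathway, and glucose 6-phosphatase (G6pc) frees the sugar. In the other direction liver pyruvate kinase (Pklr) ends glycolysis. Slc2a2 encodes GLUT2, the glucose transporter of the hepatocyte membrane, Gys2 is liver glycogen synthase, and Ppargc1a encodes PGC-1alpha, a coactivator that raises gluconeogenic genes in fasting. In GRCm38 with the GENCODE M21 annotation the genes are Pck1 on chr2:173153048-173159273, Slc2a2 on chr3:28697903-28731359, Pklr on chr3:89136142-89146784, Ppargc1a on chr5:51454250-51567726, Gys2 on chr6:142422613-142473109, G6pc on chr11:101367561-101377903, Fbp1 on chr13:62864753-62888282 and Pcx on chr19:4510472-4621752. Where within each gene its probe lies was not used here.

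Sequences upstream of 4 genes that fell are shown because Pck1 and Pklr are textbook cases of hormone- and sugar-responsive promoters. Windows of up to 250 bases before the RefSeq start (GRCm38.p6) are printed 5′ to 3′ on the strand of the gene, stopping before any base that GENCODE places in an exon. Capitals mark the motif found. In the Pck1 window on chr2:173152823-173153047, plus strand, they mark the core of a cAMP response element, ACGTCA, at 91 to 86 bases before the start. In the downstream Pklr window on chr3:89136373-89136571, plus strand, which lies by the start used in liver, they mark a carbohydrate response element (ChoRE) at 170 to 154 bases before the start. In the Slc2a2 window on chr3:28697653-28697902, plus strand, they mark a nuclear receptor half-site, AGGTCA, at 21 to 16 bases before the start. The Fbp1 window on chr13:62888283-62888532, minus strand, held none of the motifs searched. RefSeq entries matched 7 of the 8 genes, all but Gys2. The bases just after the start of the downstream Pklr window were not found in a GENCODE transcript of Pklr.
Pck1: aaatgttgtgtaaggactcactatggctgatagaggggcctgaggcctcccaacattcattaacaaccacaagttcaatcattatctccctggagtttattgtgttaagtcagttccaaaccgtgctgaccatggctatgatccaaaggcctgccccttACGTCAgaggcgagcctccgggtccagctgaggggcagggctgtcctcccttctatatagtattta
Pklr: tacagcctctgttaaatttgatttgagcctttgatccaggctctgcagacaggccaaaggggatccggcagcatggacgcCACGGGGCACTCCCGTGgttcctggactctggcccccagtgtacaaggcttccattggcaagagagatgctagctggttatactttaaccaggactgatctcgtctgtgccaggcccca
Slc2a2: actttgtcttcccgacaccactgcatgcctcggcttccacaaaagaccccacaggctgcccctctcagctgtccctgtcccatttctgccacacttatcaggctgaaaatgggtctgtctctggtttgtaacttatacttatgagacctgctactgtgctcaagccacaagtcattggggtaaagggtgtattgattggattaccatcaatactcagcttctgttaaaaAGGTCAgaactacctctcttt
Fbp1: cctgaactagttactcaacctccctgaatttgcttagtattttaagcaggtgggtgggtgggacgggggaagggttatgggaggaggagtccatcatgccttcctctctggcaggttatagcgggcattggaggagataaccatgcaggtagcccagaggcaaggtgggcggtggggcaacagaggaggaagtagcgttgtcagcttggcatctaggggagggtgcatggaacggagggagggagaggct
Both strands of 32851 RefSeq promoters were searched over the 250 bases before the start. The cAMP response element core was in 6.469% of them, the AGGTCA half-site in 14.02%, the E-box CACGTG in 6.021% and the FOXO site GTAAACA in 3.166%. A pair of half-sites with 1 base between them was in 0.03348%, and the ChoRE was in 0.09741%. Of the members not printed, G6pc held the half-site, Pcx the E-box and Ppargc1a the cAMP response element core. The upstream Pklr window, also not printed, held the half-site. A match describes letters only, and each half-site of a pair is also counted as a single half-site.

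In males at 5 mg/kg, 5 of the 8 genes fell. Pklr was lowered most, where it dropped by 78.6% from the control level, followed by Slc2a2, Pck1, Fbp1 and Pcx, and none of the 8 rose. In females at 5 mg/kg, Pklr and Fbp1 fell. By probe, 5 of 9 were called in males, all downward, where 12.7% of all probes were called and 8.49% were called downward. In females 2 of 9 were called, both downward, where 4.52% of all probes were called and 2.26% were called downward. Calls were made at an adjusted p under 0.10 in edgeR's quasi-likelihood fit of all 37 mice, with p-values adjusted after Benjamini and Hochberg over the 18570 probes. All adjusted p-values below are from that fit unless DESeq2 or a left-out library is named. Doses of 1 sex shared their controls. The median log2 fold change (log2 change from here on) of the 9 probes was -0.83 in males, beside -0.12 over all probes, and -0.74 in females, beside -0.01. Below 0 lay 8 of 9 probes in males and 9 of 9 in females. Without the 4 males under 5000000 counts, an alternative chosen after seeing the data, 4 probes were called in males (those of Pklr and Ppargc1a and both of Slc2a2) and 3 in females (Pklr, Fbp1 and 1 Slc2a2 probe). This alternative left only replicates 2 and 4 of the males at 5 mg/kg. It dropped the highest male of that group for Ppargc1a (16.1 CPM) and for the Slc2a2 probe with fewer counts (7.07 CPM). With each sex fitted apart, 4 were called in males, all but Pcx of the 5, and 4 in females, where Pcx and 1 Slc2a2 probe joined Pklr and Fbp1.

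**Figure D1:**
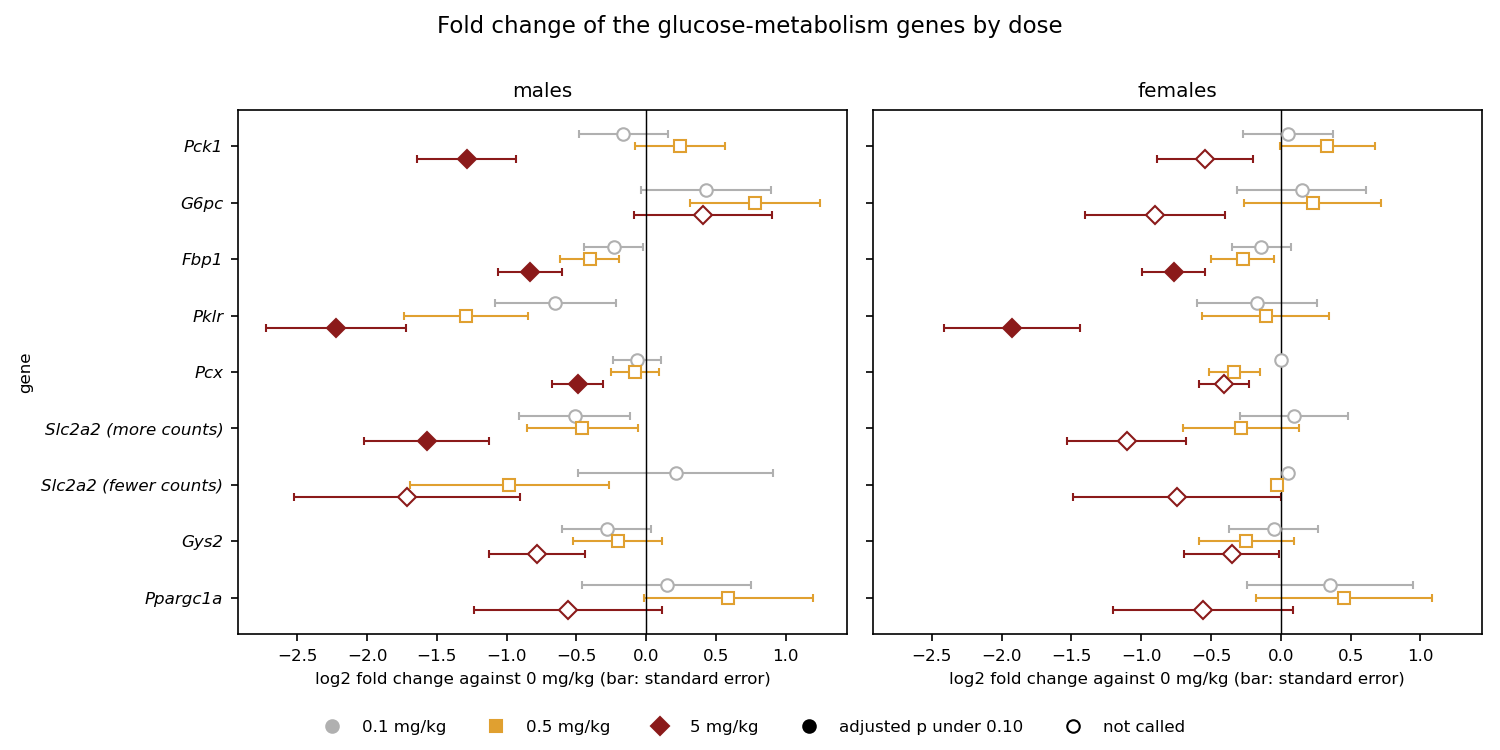
Fold changes of the 9 probes of the 8 genes against the control of the same sex, on the log2 scale (x axis), for males and females, with each marker a dose and each bar 1 standard error; filled markers passed an adjusted p of 0.10. Filled markers appear only at 5 mg/kg, for Pck1, Fbp1, Pklr, Pcx and 1 Slc2a2 probe in males and for Fbp1 and Pklr in females; no bar is drawn for fold changes too near 0 to give a standard error.

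Pck1 catalyses the step that commits carbon to glucose. Its probe read 2413, 4118, 4329, 5052 and 6927 CPM in the 5 control males. The 4 males at 5 mg/kg read 1442, 1794, 1948 and 2304 CPM. Every one of the 4 was below the lowest control, so the groups did not overlap. The means were 4567 ± 1636 CPM (SD, n = 5) and 1872 ± 358 CPM (SD, n = 4), and the log2 change was -1.29 (standard error, SE, 0.35, adjusted p = 0.0147). At 0.5 mg/kg males had 3510.3, 3935, 4271, 7563 and 7701 CPM, a range that lay above all 4 males at 5 mg/kg. The change from 0.5 to 5 mg/kg was -1.53 (SE 0.36, adjusted p = 0.00633). At 0.1 mg/kg the males spanned 2476 to 5880.2 CPM, within the control range. Without the 4 males under 5000000 counts, the change at 5 mg/kg had an adjusted p of 0.119, with a log2 change of -1.20.

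Among control females Pck1 was widely spread. The 5 control females read 1655, 2014, 3674, 6103 and 6268 CPM, and the 4 females at 5 mg/kg read 1864, 2126, 2322 and 4489.6 CPM. All 4 treated females lay within the control range. Their log2 difference was -0.55 (SE 0.34, adjusted p = 0.643). Sex and dose did not interact at a called level for Pck1, where the male change minus the female change was -0.74 (SE 0.48, adjusted p = 0.647).

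Fbp1 works further up the pathway, on fructose bisphosphate. Control females had 905, 1045, 1084, 1151 and 1195 CPM, and females at 5 mg/kg had 582, 597, 628 and 720.4 CPM. All 4 treated females were below all 5 controls, and the call was lost without female 5 mg/kg replicate 1, 2 or 3 or female 0 mg/kg replicate 5 (adjusted p of 0.142, 0.134, 0.131 and 0.101). The log2 change was -0.77 (SE 0.23, adjusted p = 0.0472). Control males read 471, 624, 716, 774 and 1010.4 CPM and males at 5 mg/kg 170.3, 377, 456 and 608 CPM. In males the groups overlapped, and the fall of 0.83 on the log2 scale (SE 0.23, adjusted p = 0.0148) included 1 mouse far below the rest. That mouse, replicate 3, had the fewest counts of all 37 libraries, 2101495. Leaving it out gave -0.58 with an adjusted p of 0.0931, and without the 4 males under 5000000 counts it was -0.48 with an adjusted p of 0.232. Fbp1 at 0.5 mg/kg was 412 to 672 CPM in males and 838 to 927 CPM in females, with adjusted p-values of 0.53 and 1.

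Pcx supplies the oxaloacetate that Pck1 uses. It read 320.1, 379, 429, 475 and 524 CPM in control males and 195, 275, 333 and 407 CPM in males at 5 mg/kg. The upper treated males overlapped the lower controls, and the log2 change was -0.49 (SE 0.18, adjusted p = 0.0871). This was the weakest call among the members: 11 of 19 alternatives lost it, among them DESeq2 (adjusted p = 0.105). Leaving out any one of male 5 mg/kg replicate 3, male 5 mg/kg replicate 4, male 0 mg/kg replicate 1 or male 0 mg/kg replicate 2 did so too, with adjusted p-values of 0.299, 0.145, 0.165 and 0.121. Control females had 429, 439.8, 465, 483 and 574 CPM and females at 5 mg/kg had 318, 361, 380.1 and 383 CPM. The female groups did not overlap, and the log2 difference of -0.41 (SE 0.18) had an adjusted p of 0.315, although Pcx was called in females with each sex fitted apart.

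G6pc, the last step to free glucose, was the one gene of the 8 with a value above 0 in males at 5 mg/kg. Control males had 39.9, 48.4, 56.6, 64.4 and 115 CPM and males at 5 mg/kg 49.9, 57.5, 99.3 and 139 CPM, at a log2 difference of 0.41 (SE 0.49, adjusted p = 0.704). Control females had 33.9, 36.8, 59.2, 70.4 and 87.0 CPM and females at 5 mg/kg 15.1, 16.6, 38.5 and 52.7 CPM, at -0.90 (SE 0.50, adjusted p = 0.517). In both sexes treated and control mice overlapped, and no call was made. The male change minus the female change was 1.31 (SE 0.70, adjusted p = 0.518). One male at 0.5 mg/kg reached 331 CPM while the other 4 had 35.3 to 80.4 CPM.

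**Figure D2:**
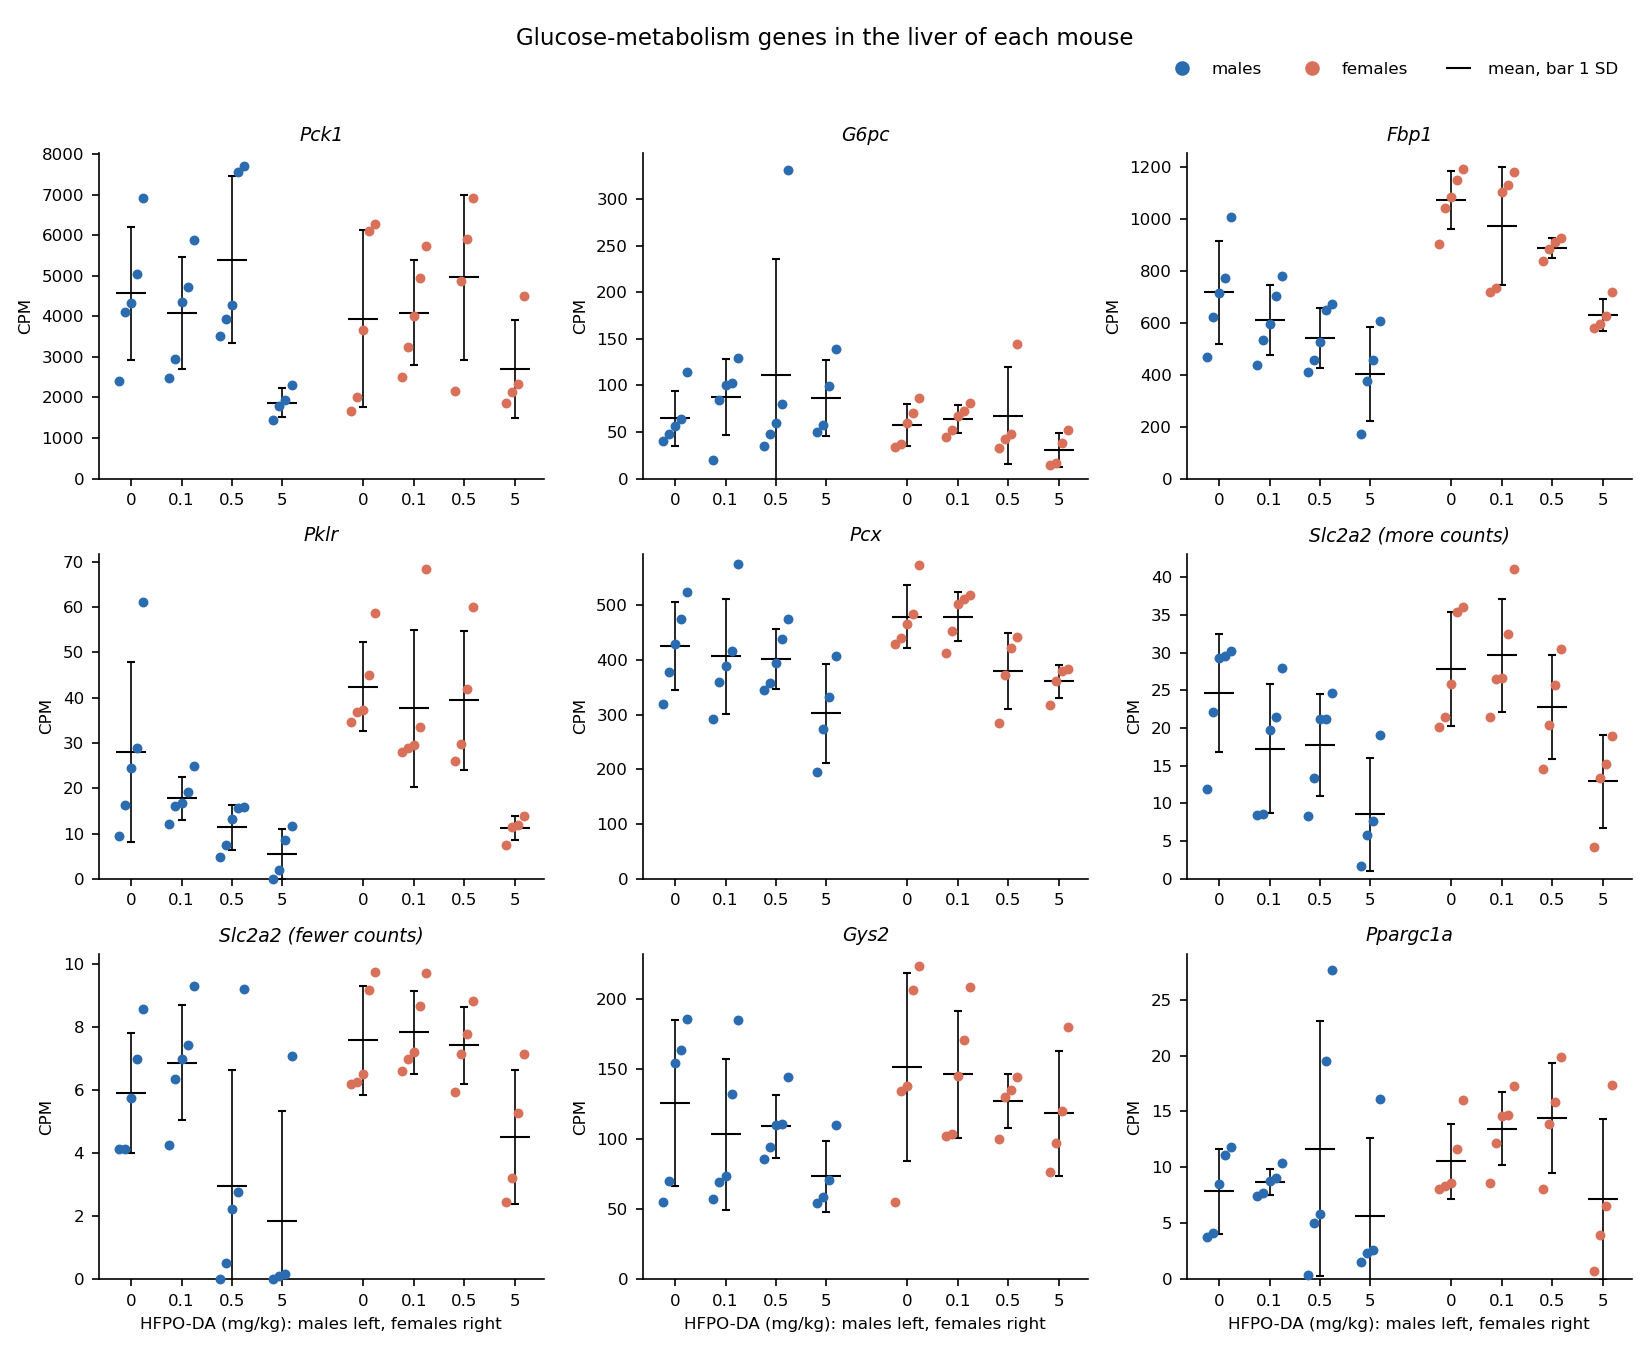
CPM of each probe of the 8 genes (y axis) in each of the 37 mice, by dose in mg/kg with males at the left and females at the right; black lines are means and bars 1 SD, cut off at 0. Pck1 in males at 5 mg/kg lies between 1442 and 2304 CPM, below all control males, while in G6pc a single male at 0.5 mg/kg, at 331 CPM, lies above the other 4.

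Pklr, which makes pyruvate from phosphoenolpyruvate and so runs against gluconeogenesis, had the largest log2 change of the 9 probes in both sexes at 5 mg/kg. Control females had 34.6, 36.8, 37.4, 44.9 and 58.6 CPM and females at 5 mg/kg 7.46, 11.4, 11.9 and 13.86 CPM. Every treated female was far below the lowest control. The log2 change was -1.93 (SE 0.48, adjusted p = 0.0123). Females at 0.5 mg/kg had 26.02, 29.8, 41.8 and 59.9 CPM, overlapping the controls and above every female at 5 mg/kg. From 0.5 to 5 mg/kg the change was -1.82 (SE 0.50, adjusted p = 0.0586), and 8 of 18 alternatives lost it. Among these were leaving out female 0.5 mg/kg replicate 3 (-1.54, adjusted p = 0.264) or replicate 4 (adjusted p = 0.134), or female 5 mg/kg replicates 1 to 4 in turn (adjusted p of 0.161, 0.108, 0.274 and 0.123).

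In males Pklr was uneven, at 9.50, 16.3, 24.5, 28.8 and 61.1 CPM in controls. The males at 0.5 mg/kg had 4.82, 7.54, 13.2, 15.6 and 15.8 CPM and the males at 5 mg/kg 0, 1.89, 8.65 and 11.7 CPM. The lowest control fell inside the range of both treated groups. The log2 change was -2.22 at 5 mg/kg (SE 0.50, adjusted p = 0.00261) and -1.29 at 0.5 mg/kg (SE 0.45, adjusted p = 0.278). The mouse at 0 was replicate 3, the one with 2101495 counts, and the mouse at 1.89 CPM, replicate 1, was also under 5000000 counts. Without the 4 males under 5000000 counts the change at 5 mg/kg was -1.50 (adjusted p = 0.0608), and without male 5 mg/kg replicate 2 it was -2.87 (adjusted p = 0.000546). Pklr fell in both sexes under every alternative tried, and the male and female changes differed by -0.30 (SE 0.66, adjusted p = 0.976).

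GLUT2, the product of Slc2a2, carries glucose both into and out of hepatocytes. Of its 2 probes, the one with more counts had 11.9, 22.1, 29.3, 29.6 and 30.2 CPM in control males and 1.65, 5.87, 7.61 and 19.1 CPM in males at 5 mg/kg. Only the highest treated male reached into the control range. The log2 change was -1.57 (SE 0.45, adjusted p = 0.0202), and it was -2.24 (adjusted p = 0.00126) without replicate 3, the mouse at 19.1 CPM. In control females this probe had 20.1, 21.5, 25.8, 35.3 and 36.1 CPM and at 5 mg/kg 4.29, 13.3, 15.2 and 18.9 CPM. Treated and control females did not overlap, but the log2 difference of -1.10 (SE 0.43) had an adjusted p of 0.20, and Slc2a2 was called in females by DESeq2, with each sex fitted apart, with probes summed and without the 4 males under 5000000 counts.

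The other Slc2a2 probe sat near the detection limit in treated males. It had 4.12 to 8.56 CPM in control males and 0, 0.110, 0.155 and 7.07 CPM in males at 5 mg/kg, of which the first 3 are 1 count or none. In control females it had 6.18 to 9.74 CPM and at 5 mg/kg 2.46 to 7.15 CPM. Neither difference passed, at log2 values of -1.71 in males (SE 0.81, adjusted p = 0.191) and -0.74 in females (SE 0.75, adjusted p = 0.922). The first probe held 3.62 counts for each count of the other, and over the 37 mice, each sex centred on its own mean, their log2 CPM had a Pearson r of 0.25. The fall in males was called on the probe with more counts alone, and on both without the 4 males under 5000000 counts (-1.90, adjusted p = 0.0111, on the probe with more counts).

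Glycogen synthase of the liver, Gys2, makes the storage polymer. Control males had 54.8, 69.9, 154, 164 and 186 CPM, and males at 5 mg/kg had 54.6, 58.4, 71.0 and 110.3 CPM, within that range apart from the lowest mouse. The log2 difference was -0.78 (SE 0.35, adjusted p = 0.159) in males and -0.35 (SE 0.34, adjusted p = 0.909) in females, whose controls had 54.8 to 224 CPM and treated mice 76.7 to 180.3 CPM. No call was made for Gys2 at any dose in the fit of all mice. At 5 mg/kg it was called in males without male 5 mg/kg replicate 3, the mouse at 110.3 CPM, and without male 0 mg/kg replicate 3.

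Ppargc1a, the coactivator, had few counts in every group. Control males had 3.75, 4.08, 8.51, 11.1 and 11.8 CPM and males at 5 mg/kg 1.55, 2.32, 2.59 and 16.1 CPM. 3 of the 4 treated males were below all controls and the other was above them all, and the log2 difference was -0.56 (SE 0.67, adjusted p = 0.703). Control females had 8.09 to 15.99 CPM and females at 5 mg/kg 0.730, 3.95, 6.54 and 17.4 CPM, with a log2 difference of -0.56 (SE 0.64, adjusted p = 0.968). The high male was replicate 3, the library of 2101495 counts, and Ppargc1a was called in males without the 4 males under 5000000 counts. In the 5 males at 0.5 mg/kg the range was 0.377 to 27.6 CPM, wider than the controls at either end.

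At 0.5 mg/kg no member probe was called in males, where 0.625% of all probes were, nor in females, where 0.113% were. At 0.1 mg/kg no probe at all was called in either sex, a share of 0%. At that dose the unadjusted p of edgeR was under 0.05 for 1325 probes in the male table and 442 in the female, and for 0 of the 9 member probes. DESeq2 also called 0 member probes at 0.1 and 0.5 mg/kg. Of the 9 probes at 0.5 mg/kg, 1 had an unadjusted edgeR p under 0.05 in males, that of Pklr, and 0 did in females. Between 0.5 and 5 mg/kg, where 8.73% of all probes were called in males and 1.48% in females, Pck1 was called in males and Pklr in females. The interaction of sex and dose at 5 mg/kg was called for 0.63% of all probes and for none of the 9 by edgeR or DESeq2, and 0 of them had an unadjusted p under 0.05. Control males and control females, a comparison in which 2.6% of all probes were called, differed in none of the 9 by edgeR. Fbp1 was nearest there, at -0.58 for males minus females (SE 0.21, adjusted p = 0.207), and DESeq2 called it.

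Members moved together over the mice to different degrees. With each sex centred on its own mean, the log2 CPM of Fbp1 and Pklr had a Pearson r of 0.80 over 37 mice, the highest of the 28 pairs of genes, and G6pc and Pcx had the lowest at -0.27. Pklr and Pcx had 0.59, Slc2a2 and Ppargc1a 0.54, and Pck1 and Ppargc1a 0.53. The mice share dose groups, and all values of a mouse share its library, so these are descriptions. By the same measure the probes nearest to Pck1 were both of Lpin1, a phosphatidate phosphatase and transcriptional coactivator, at 0.84 and 0.84, and Gne at 0.78. For Fbp1 they included Iyd (0.87) and Dpyd (0.81), and for Pklr Gigyf1 (0.91), Iyd (0.89) and Gm4756 (0.87). Pcx was nearest to Gcn1l1 (0.83), Tmem106b (0.82) and Fn1 (0.81), and Slc2a2 to Ptprd (0.84), Ccl9 (0.82) and Pnisr (0.81). The nearest probes to G6pc were Slc25a25 at 0.66 and 0.64 and Lonrf3 at 0.65. Those nearest to Gys2 were Per3 (0.70), Bhlhe40 (0.67) and Dbp (0.65), all genes of the circadian clock or its output, and to Ppargc1a they were Arvcf (0.77), Piga (0.76) and Crcp (0.74).

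The rest of the pathway gave a wider view. The 6 further lists, for gluconeogenesis, glycolysis, glycogen, hexose entry, the pentose phosphate pathway and hormonal and transcriptional control, had 135 genes in the table besides the members, of which 126 were tested. They were written with earlier results of these data known. At 5 mg/kg, 39 genes of these lists were called in males, against 15.8% of all genes with a called probe, and 13 in females, against 5.24%. For genes with a probe called upward the background was 5.31% in males and 2.62% in females, and downward it was 10.6% and 2.63%. The male count was 25 without male 5 mg/kg replicate 3, and the female count was 8 without female 5 mg/kg replicate 2. Without the 4 males under 5000000 counts they were 24 and 16. With each sex fitted apart they were 19 in males and 27 in females, so which sex had more calls turned with the fit.

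Next to G6pc in the pathway, Slc37a4 brings glucose 6-phosphate into the endoplasmic reticulum, where G6pc works. The probe of it with more counts had 100.3 to 127 CPM in control males and 16.3 to 39.1 CPM at 5 mg/kg, and 106 to 209 CPM in control females and 24.1 to 91.5 CPM at 5 mg/kg. The groups did not overlap in either sex. The log2 change was -2.26 in males (SE 0.31, adjusted p = 8.74e-07) and -1.54 in females (SE 0.29, adjusted p = 0.000402), beside no call for G6pc itself.

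Of 19 gluconeogenesis genes tested, 4 fell and 3 rose in males and 1 fell and 2 rose in females. Their median log2 change was -0.04 in males and 0.02 in females, beside -0.11 and -0.02 over all genes. Sds, serine dehydratase, fell in males on both probes, and on the one with fewer counts it went from 22.9 to 64.9 CPM in controls to 5.90 to 8.72 CPM at 5 mg/kg, at -2.46 (SE 0.43, adjusted p = 7.74e-05), and had -0.26 in females. Gpd1, the glycerol 3-phosphate dehydrogenase, rose in males by 0.66 (SE 0.22, adjusted p = 0.0464) and in females by 0.65 (adjusted p = 0.0933) on the log2 scale. Fbp2, the muscle form of fructose bisphosphatase, had 0 counts in all 5 control males and 12 to 61 counts in the 4 males at 5 mg/kg (adjusted p = 0.00245). In females it had 0 to 15 counts in controls and 49 to 93 counts at 5 mg/kg, a difference that was not called (adjusted p = 0.114).

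For glycogen, 4 of 23 genes fell and 1 rose in males, and 3 fell and none rose in females. Among the 4, Phkg2 was called on 1 of 3 probes, with at most 1 count at 5 mg/kg, while its other probes had log2 values of 2.08 and 1.42 that were not called. Gaa, the gene that rose in males, was called on 1 probe (0.90, adjusted p = 0.07). Its other probes, not called, had means of 26.7, 20.3 and 10.3 CPM in control males and 21.0, 34.3 and 9.60 CPM at 5 mg/kg. The 3 that fell in females, Ugp2, Pygl and Ppp1r3c, fell in males too. Ugp2 makes UDP-glucose, the donor for glycogen synthase, and had 353 to 542 CPM in control males and 136 to 199.5 CPM at 5 mg/kg. Its log2 change was -1.31 in males (SE 0.21, adjusted p = 1.57e-05) and -1.11 in females (SE 0.20, adjusted p = 0.000281). Pygl, liver glycogen phosphorylase, had log2 changes of -1.02 in males and -0.94 in females on 1 probe and of -0.75 and -0.73 on the other, all called. Ppp1r3c, a glycogen-targeting subunit of protein phosphatase 1, read 46.2 to 213 CPM in control females and 11.3 to 32.7 CPM at 5 mg/kg, a change of -2.28 (SE 0.46, adjusted p = 0.000879). In males it was -1.21 (SE 0.44, adjusted p = 0.0776). Ugp2 serves synthesis and Pygl breakdown of the polymer.

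**Figure D3:**
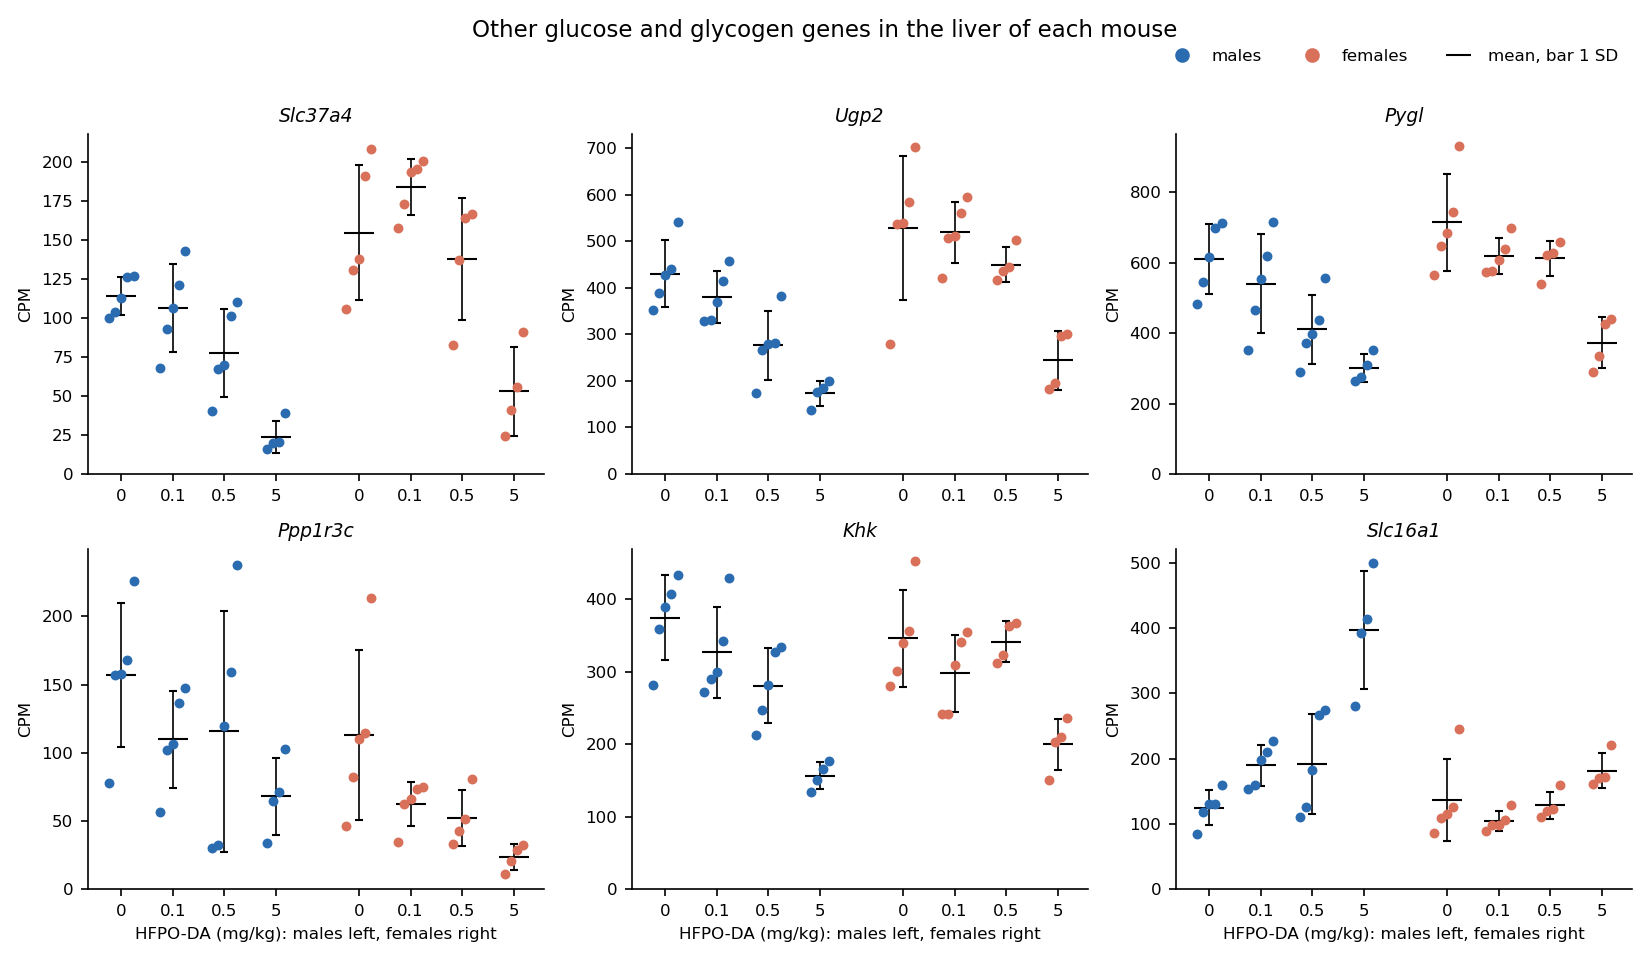
CPM of 6 further genes (y axis) in each mouse by dose in mg/kg, males left and females right, with means and bars of 1 SD; Pygl and Slc37a4 are each shown by 1 of their 2 probes. Slc37a4, Ugp2, Pygl and Khk at 5 mg/kg lie below the controls in both sexes, apart from overlapping Ugp2 females, and Slc16a1 lies above the controls in males.

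Among the 15 genes of hexose transport and entry, 4 fell and 2 rose in males and 2 fell and 1 rose in females. Khk, ketohexokinase, and Tkfc, triokinase, start fructose breakdown, and both fell in both sexes. For Khk the log2 change was -1.26 in males (SE 0.18, adjusted p = 2.23e-06) and -0.79 in females (SE 0.18, adjusted p = 0.00312). Tkfc changed by -0.86 in males and -0.91 in females. Slc16a1, the lactate and pyruvate carrier MCT1, rose in males from 84.6 to 160.0 CPM in controls to 281 to 499 CPM (log2 change 1.67, SE 0.24), while the female value was 0.41 (adjusted p = 0.565) and the interaction was not called (1.26, adjusted p = 0.106).

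Of 26 glycolysis genes, 7 fell and 2 rose in males and 2 fell in females, with medians of -0.20 and 0.20 beside -0.11 and -0.02 over all genes. Among those that fell in males, Pfkfb1 was called on a probe with 0 counts in all 4 males at 5 mg/kg and in 2 of the 5 controls. Eno3 was called on a probe with at most 10 counts at 5 mg/kg and on another with 0. Gckr, the protein that holds glucokinase in the nucleus, fell in both sexes. On the probe with more counts it had log2 changes of -0.90 in males and -0.81 in females. Ldha, lactate dehydrogenase A, was 184 to 227 CPM in control males and 107 to 144 CPM at 5 mg/kg, a change of -0.73 (SE 0.19, adjusted p = 0.0091). The female value was 0.50 (SE 0.18, adjusted p = 0.16), and the male minus female difference of -1.23 (SE 0.26) was called (adjusted p = 0.0157). Gapdh had 1 of its 3 probes called in males. In the pentose phosphate pathway 2 of 8 genes rose in males, Pgd by 1.46 (adjusted p = 0.0331) and Taldo1 on a probe with 0 counts in all 5 controls and at most 28 at 5 mg/kg. On that probe 2 of the 4 males at 5 mg/kg also had 0. The other Taldo1 probes, with more counts, were not called, at means of 72.8 and 52.1 CPM in control males and 94.2 and 61.5 CPM at 5 mg/kg. In females 1 rose, Pgls, by 0.74 (adjusted p = 0.0559).

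Of 35 genes listed under hormonal and transcriptional control, 9 fell and 1 rose in males. In females 0 fell and 1 rose, and the difference between these counts was not tested. The insulin-responsive factor Foxo1 fell in males by 1.98 on the log2 scale (SE 0.54, adjusted p = 0.014). It had 7.18 to 32.6 CPM in control males and 0 to 11.4 CPM at 5 mg/kg, so the groups overlapped, and 1 treated male had no count. Tat, a glucocorticoid-responsive enzyme, fell in males by 2.86 (SE 0.53), had 0.38 in females, and its interaction was called (-3.23, adjusted p = 0.0157). Cebpb fell in males by 0.69 (adjusted p = 0.0856) and rose in females by 0.78 (adjusted p = 0.0797), with a called interaction of -1.48 (SE 0.36, adjusted p = 0.0475). These values are of 1 of its 2 probes, and the other was called in the interaction alone (-1.41, adjusted p = 0.0862). The one riser in males, Irs1, rested on a single mouse of 24 counts at 5 mg/kg, the other 3 and all 5 controls having none. The falls of Creb1 and Esrra are on probes with 0 counts in all 4 males at 5 mg/kg and in 2 of the 5 controls. The other Creb1 probes, with more counts, were not called. Their means were 7.47 and 1.88 CPM in control males and 7.99 and 6.05 CPM at 5 mg/kg.

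**Figure D4:**
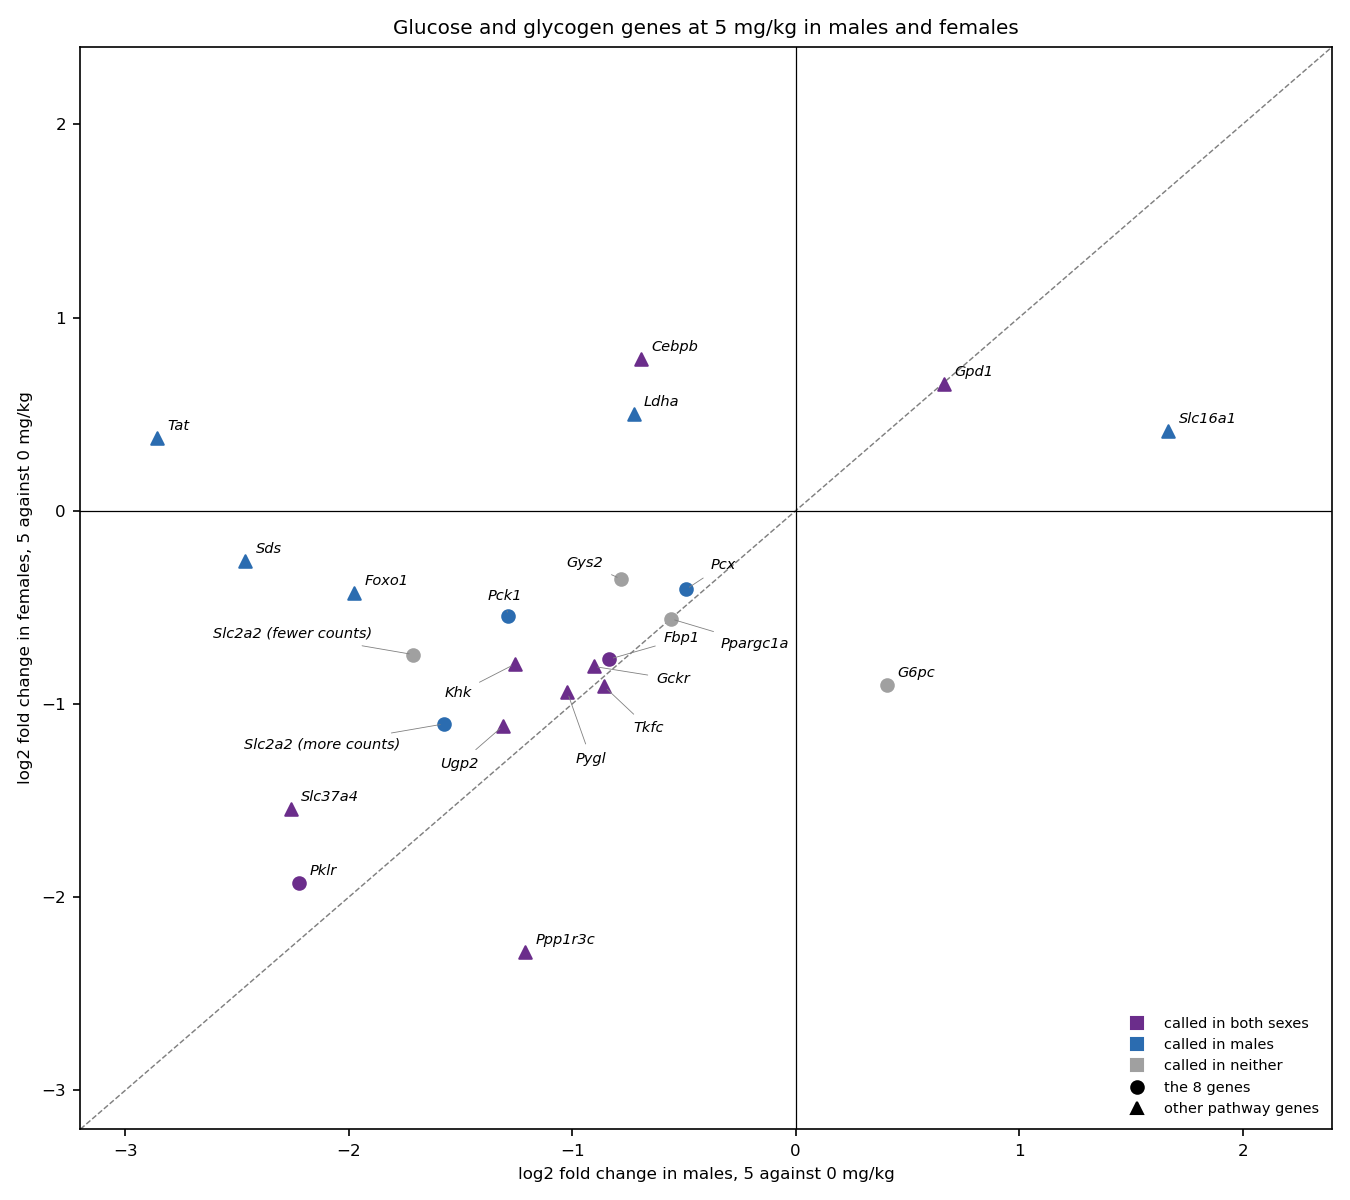
Log2 fold change at 5 mg/kg in males (x axis) and females (y axis) for the 9 probes of the 8 genes (circles) and 1 probe each of 14 further pathway genes (triangles), coloured by the sexes in which they were called; the dashed line marks equal change. Pklr, Fbp1, Slc37a4, Ugp2, Pygl, Ppp1r3c, Khk, Tkfc and Gckr lie in the lower left, while Cebpb and Ldha lie at opposite sides of 0 in the sexes.

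Zonation markers were also summed. Periportal markers, 6 genes that include Pck1 and Sds, summed to 12283 to 19168 CPM in control males and 6130 to 9993 CPM at 5 mg/kg, and to 10485 to 16626 CPM in control females and 8133 to 14052 CPM at 5 mg/kg. All 6 fell in males and 2, Hal and Gls2, in females. Over all genes, 10.6% in males and 2.63% in females had a probe called downward. Pck1 is itself one of the 8 genes followed, so the periportal sum and count include its own fall. The 6 pericentral markers summed to 8548 to 15561 CPM in control males and 3346 to 7354 CPM at 5 mg/kg, with 4 of 6 falling, and to 7145 to 11244 CPM and 4653 to 9179 CPM in females, with 2 of 6 falling. Those that fell in males were Glul, Cyp2e1, Slc1a2 and Oat. Lgr5 had no count in any male at 5 mg/kg but was not called, and 2 libraries of that group were under 5000000 counts. The part of zonation in the changes of the 8 genes was not tested.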

How the data were processed

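Liver RNA of 37 mice was measured with TempO-Seq. The authors demultiplexed the reads with bcl2fastq 2.17.1.14, aligned them to the probe sequences with Bowtie, removed 3 of 40 mice, and deposited raw counts per probe, with no normalization. The Bowtie version and the genome build are not given in the sources used here. A gene's symbol is the text before the final separator of the probe name. No per-sample column was left without a sample.

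Groups followed the labelled sex and dose. Counts were normalised by TMM in edgeR 4.0.16 (R 4.3.3), and probes with low counts were removed with filterByExpr over the 8 groups. A single quasi-likelihood fit of the 8 groups gave 10 comparisons, with Benjamini-Hochberg adjustment and a threshold of 0.10, the false discovery rate of 10% that the authors used. Levels are counts per 1000000 (CPM) of the TMM-normalised library and were not compared between genes, since probes differ in efficiency. Correlations used log2 CPM with a prior count of 2. DESeq2 1.42.0, another scaling, other filters, a robust fit, each sex apart, summed probes, thinned counts and leaving out each mouse were alternatives. Scripts were tested on simulated data. Total counts of 2101495 to 13878254 per mouse limit the precision of low values, beside the spread between mice.

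The members, the gene lists and the rule for named genes were chosen with earlier results of these data known. Named genes were all members, the 3 probes nearest to each by correlation, and from each pathway list up to 5 genes with the smallest adjusted p among those called at 5 mg/kg in either sex. Esrra, Pfkfb1 and Eno3 were named after their values were seen. Some genes that this rule names are not reported here. No 2 libraries were near-identical, the highest rank correlation between mice being 0.954.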

Additional observations from a re-analysis of the deposited data

Results flagged for a closer look

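In 132 groups of 4 or 5 mice, 9 held a mouse far from the others of its group by Dixon's test. Chance gives about 1 in 20 for normally distributed values, and whether CPM were so distributed was not tested. Among the members, G6pc was at 331 CPM in male 0.5 mg/kg replicate 5, against 35.3 to 80.4 CPM in the others, and at 145 CPM in female 0.5 mg/kg replicate 3, against 33.1 to 48.3 CPM. Pklr was at 68.4 CPM in female 0.1 mg/kg replicate 2, with at most 33.6 CPM in the rest of its group. The Slc2a2 probe with fewer counts was at 7.07 CPM in male 5 mg/kg replicate 1, with 0 to 0.155 CPM in the other 3. Ppargc1a was at 16.1 CPM in male 5 mg/kg replicate 3, with 1.55 to 2.59 CPM in the other 3.

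Outside the members, Fbp2 was at 1.25 CPM in female 0 mg/kg replicate 5, with 0 to 0.102 CPM in the other controls. Foxo1 was lowest in male 0 mg/kg replicate 4, at 7.18 CPM, with 26.1 to 32.6 CPM in the others. In female 0 mg/kg replicate 3, Slc16a1 was at 245 CPM, with 86.3 to 125 CPM in the other controls. Sds was at 53.2 CPM in female 5 mg/kg replicate 4, with 27.8 to 29.9 CPM in the other 3.

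The effect of 5 mg/kg differed between males and females, by the interaction term, for 4 pathway genes. The male log2 change minus the female was -3.23 for Tat, -2.20 for Sds (1 of 2 probes), -1.23 for Ldha (1 of 2 probes) and -1.48 for Cebpb. None of the 9 member probes was among them.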

How the results depend on the processing

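The alternatives were run for the counts of calls and for the members called at 5 mg/kg, whose changes kept their direction. For members that were not called, they gave only whether a call was made. The changes of single pathway genes and the interaction values were not followed through them. Member probes called at 5 mg/kg in males numbered 4 to 6 over 19 alternatives, against 5, and none was called at 0.1 or 0.5 mg/kg in either sex under any alternative run. In females at 5 mg/kg, 4 were called with each sex fitted apart, against 2, and 1 to 2 without single mice. From 0.5 to 5 mg/kg in males, 2 were called with probes summed and 4 without the mice under 5000000 counts, against 1, and 1 to 3 without single mice (3 without male 5 mg/kg replicate 1, 2 or 3). In females the count of 1 became 0 at an adjusted p under 0.05 and with the robust fit, and was 0 to 1 without single mice. The interaction count of 0 became 1 without the mice under 5000000 counts, and was 0 to 1 without single mice (1 without male 5 mg/kg replicate 1). Between controls, 0 became 1 without those low-count mice and with DESeq2. Pathway genes called in males at 5 mg/kg were 39, and 24 at an adjusted p under 0.05, 19 with each sex apart, 23 with counts thinned, 24 without the low-count mice and 25 to 38 without single mice. In females they were 13, and 27 with each sex apart and 8 to 14 without single mice. Leaving out the low-count mice was chosen after seeing the data. In the shallowest library 1 CPM is 2.67 counts, so low values of Pklr, Slc2a2 and Ppargc1a rest on few counts. No paired analysis was possible because the labels give the groups no shared replicate numbers.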
